A study of Mus musculus with 4 samples.

Results

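The natriuretic peptide system was examined in cultured primary pancreatic ductal cells of adult C57BL/6 mice through 10 genes, out of 22869 gene symbols in the deposited tables. They were chosen by symbol and encode the receptors (Npr1, Npr2, Npr3), the ligands (Nppa, Nppb, Nppc), the proteases Corin and Furin, and the cGMP-dependent kinases (Prkg1, Prkg2). For each gene the RefSeq transcript with the highest mean count stood for the gene. All 4 cultures carried floxed Hhex alleles (HhexL/L). The 2 control cultures had no Cre, and the 2 cultures of genotype Sox9CreER;HhexL/L also carried a tamoxifen-dependent Cre under the promoter of Sox9, a ductal transcription factor. The mice had not been induced. Cells of both groups received 500 nM 4-hydroxytamoxifen, which activates this Cre, for 4 days in the dish before RNA was taken. The comparison asks how the loss of Hhex, a homeodomain protein that regulates transcription in liver and pancreas, changes the RNA of these cells. No group had the Cre without the floxed alleles, so effects of the Cre and of the loss of Hhex cannot be told apart.

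Natriuretic peptides are made as precursors and cut to active hormones that share a ring closed by a disulfide bond. Corin, a serine protease of the cell surface, cuts the precursor of the atrial peptide (Nppa), and furin, a proprotein convertase of the secretory pathway, cuts those of the B-type (Nppb) and C-type (Nppc) peptides. Npr1 binds the atrial and B-type peptides and Npr2 the C-type peptide, and both make cGMP through a guanylyl cyclase domain. Npr3, the clearance receptor, lacks that domain, takes all of these peptides up for degradation and can signal through inhibitory G proteins. Prkg1 and Prkg2 are the kinases that cGMP activates, and Prkg2 is known in epithelia for phosphorylating the chloride channel CFTR.

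The B-type and C-type ligands are shown by the coding sequence of the ring, since these genes are close relatives whose products bind different cyclase receptors. The sequences are from GENCODE release M21, with the codons of the cysteines that close the ring in capitals.
Nppb: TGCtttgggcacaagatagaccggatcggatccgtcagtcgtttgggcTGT
Nppc: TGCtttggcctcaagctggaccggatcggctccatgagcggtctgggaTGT
Each ring spans 17 codons. Nppb and Nppc had the same base at 40 of 51 positions, and the encoded residues were the same at 13 of 17 positions. After the ring the precursor had 6 more codons in Nppb and 0 in Nppc, where the ring ends the protein.

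The libraries held between 25257778 and 39582625 counts. Counts of the targeted gene did not fall with the label: Hhex measured 24.8 and 17.7 CPM (the count over the TMM-scaled size of its library) in control 1 and 2, against 23.6 and 39.0 CPM in labelled knockout 1 and 2. The group is therefore called the libraries labelled knockout. The labels do not give the deleted part of the gene, and reads from the rest would still be counted. Sox9, whose promoter drives the Cre, measured 18.0 and 21.4 CPM in control 1 and 2. In labelled knockout 1 and 2 it measured 52.3 and 44.3 CPM. The groups did not overlap, as for 18.8% of all genes in this direction. The log2 fold change of Sox9 was 1.30 ± 0.17 (SE), with an edgeR quasi-likelihood adjusted p of 0.0512. Ductal keratins were high in every library, with Krt19 between 553 and 1014 CPM, and 13 of 14 ductal markers had a mean above 1 CPM. Of the 14, 1 was called, against 0.138% of all genes tested. This was Tm4sf4, at 114 and 79.2 CPM in control 1 and 2, against 30.2 and 29.7 CPM in labelled knockout 1 and 2 (edgeR quasi-likelihood adjusted p = 0.0359). Muc1, Spp1, Epcam and Cftr were also lower without overlap, as were 17.4% of all genes, while Krt7, Cdh1 and Car2, like Sox9, were higher. The 5 endothelial markers summed to between 1.46 and 5.54 CPM and the 7 fibroblast and stellate markers to between 3.13 and 10.97 CPM. Control 1 and labelled knockout 2 resembled each other (SD of the log2 CPM difference 0.563), as did control 2 and labelled knockout 1 (0.540). Both pairs were closer than the controls were to each other (0.612) or the libraries labelled knockout to each other (0.696). Labelled knockout 2 was the only library with Xist RNA (304 CPM, against at most 1.75 CPM), and the Y-linked Ddx3y measured 0.548 CPM there, against 108 to 202 CPM in the other libraries.

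No natriuretic peptide gene passed the test between groups. Of the 10 members 9 had enough counts to be tested, and edgeR's quasi-likelihood test called 0 of them at an adjusted p of 0.05, against 0.138% of all 15892 genes tested and 0.153% of the 20949 transcripts. DESeq2 also called 0 members, against 1.71% of genes, but it gave no adjusted p to 4 of the 9 (Npr1, Nppc, Corin, Prkg1). Of the genes to which it gave one, it called 2.16%. From limma-trend, the calls were 0 on log2(RPKM + 1), against 0.963% of genes, and 1 on log2(RPKM + 0.1), against 1.13%. By unadjusted p under 0.05 in edgeR, 1 member passed, Npr3, against 7.49% of all genes. The median log2 fold change was -0.10 over the 9 members and -0.01 over all genes. The member that varied most in absolute terms was Npr3, and its highest value came from 1 library.

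**Figure D1:**
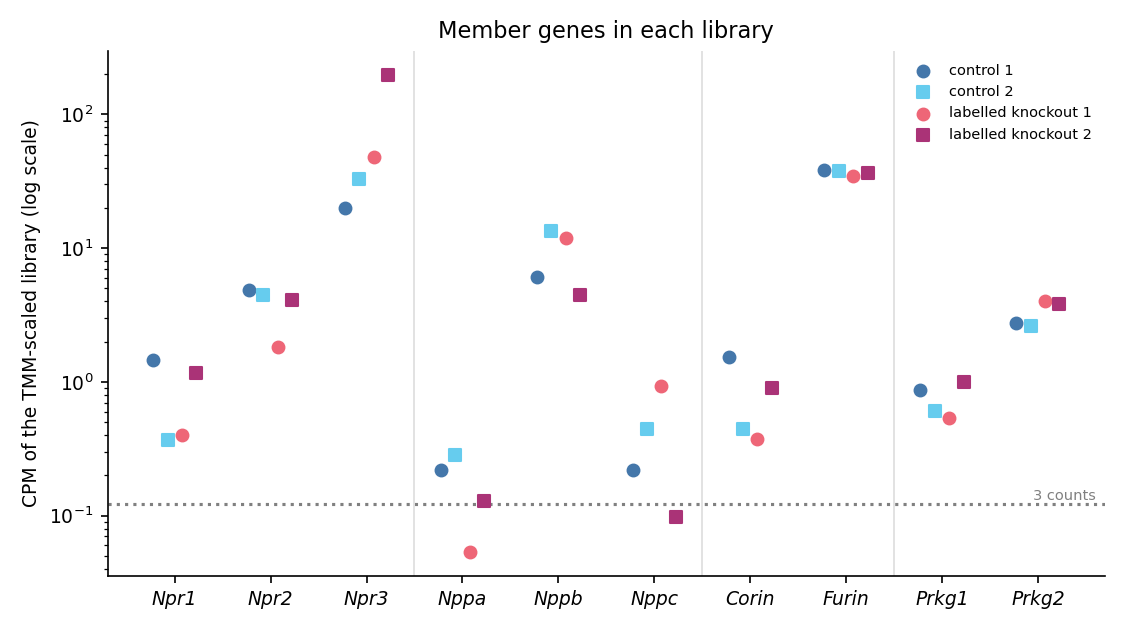
Level of each of the 10 genes in each library, in CPM on a log axis, with circles for replicate 1 and squares for replicate 2. The dotted line marks 3 counts in the library where that is the highest CPM. Npr3 in labelled knockout 2 (199 CPM) is the highest point, while Furin stays between 34.5 and 38.1 CPM in all libraries.

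Per transcript length, 3 of the genes stood above the rest. The authors' RPKM (reads per kilobase of transcript, scaled to library size) averaged 8.74 for Nppb, 8.19 for Npr3 and 6.63 for Furin over the 4 libraries. The ranges of these 3 overlapped, at 4.29 to 13.2 RPKM for Nppb, 2.06 to 21.6 RPKM for Npr3 and 6.48 to 6.91 RPKM for Furin, so their order is not fixed by these samples. Npr2 (0.395 to 0.939 RPKM) and Prkg2 (0.418 to 0.673 RPKM) came next and overlapped with each other, but lay below Furin in every library. The other 5 had mean RPKM of 0.315 for Nppc, 0.154 for Nppa, 0.154 for Npr1, 0.128 for Corin and 0.0810 for Prkg1. In labelled knockout 1 Nppc, at 0.71 RPKM, lay above Npr2 and Prkg2, so the order of these genes is not fixed either. Npr1 and Npr2, the receptors that make cGMP, were thus both under 1 RPKM in every library, while the clearance receptor was at 2.06 RPKM or more.

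Npr3 is the receptor that removes natriuretic peptides. It stood at 20.1 CPM in control 1, 33.1 CPM in control 2, 47.7 CPM in labelled knockout 1 and 199 CPM in labelled knockout 2. The groups did not overlap, but labelled knockout 1 was only 1.44-fold above the higher control, whereas labelled knockout 2 was 6.00-fold above it. The group means were 26.6 ± 9.20 CPM (SD, n = 2) and 123 ± 107 CPM (SD, n = 2). The log2 fold change was 2.21 ± 0.60 (SE), with a 95% interval of 0.81 to 3.61, an unadjusted p of 0.00714 and an adjusted p of 0.344 in edgeR's quasi-likelihood test. Of all genes tested, 0.189% had a log2 fold change as high as that of Npr3. The spread inside the group was also wide: the libraries labelled knockout differed 4.17-fold from each other, and 1.86% of all genes differed as much on the log2 scale. Groups that do not overlap in this direction were found for 18.8% of all genes.

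Both Npr3 transcripts in the tables (NM_001039181 and NM_008728) had the same counts in every library, so they are 1 measurement. Without labelled knockout 2 the log2 fold change of Npr3 was 0.83, and without labelled knockout 1 it was 2.88. With 1 library in the labelled knockout group edgeR called Npr3 in both cases (adjusted p of 5.68e-06 and 1.15e-72), against 8.57% and 7.6% of all genes. In these fits the spread comes from the 2 controls alone and the single library is assumed to vary like them. With all libraries kept, Npr3 was called in 1 of 11 alternatives, limma-trend on log2(RPKM + 0.1) (adjusted p = 0.0205). In the other 10 its adjusted p ranged from 0.0556 to 0.816.

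**Figure D2:**
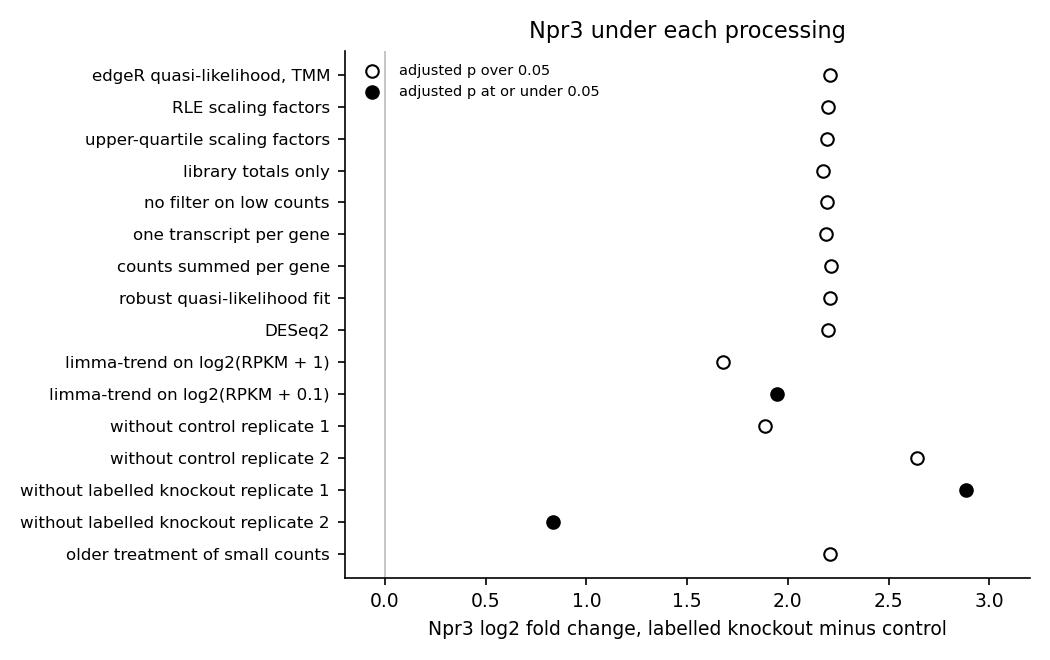
Npr3 log2 fold change, labelled knockout minus control, under the reported test (top) and 15 alternatives, with filled points for an adjusted p at or under 0.05. All values are above 0, from 0.83 without labelled knockout replicate 2 to 2.88 without labelled knockout replicate 1.

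Marker levels also differed between the libraries. The summed level of the mesothelial markers followed the order of Npr3, at 1586, 2015, 3141 and 4489 CPM over control 1, control 2, labelled knockout 1 and labelled knockout 2. Nearly all of that sum was Msln, the mesothelin gene, which was higher in the libraries labelled knockout without overlap, as were 18.8% of all genes. The other 4 measured markers of the list (Wt1, Upk3b, Lrrn4, Gpm6a) were at 1.87 CPM or less in each library and did not follow this order. The part of Msln, and of the Xist and Ddx3y differences, in the Npr3 values was not tested. In RNA from whole cultures, fewer cells of a type and less RNA per cell cannot be told apart.

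The genes with the pattern most like that of Npr3 over the 4 libraries were Bex4, Efemp1, A930038C07Rik, Gldc and Wisp1, by distance in centred log2 CPM among 10195 genes with a mean of at least 5 CPM. Efemp1, which encodes a fibulin of the extracellular matrix, stood at 22.1, 24.3, 35.8 and 114 CPM in the order of libraries above. Gldc, the glycine decarboxylase gene, stood at 4.12, 4.99, 6.59 and 50.4 CPM. As for Npr3, the highest value was in labelled knockout 2 for each of these genes, which follows from choosing them by their likeness to Npr3. Their distances from Npr3 ran from 0.668 to 0.804, and with 4 libraries such likeness rests on few values.

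The stretch before the Npr3 start is shown because Npr3 was the gene of this set with the highest fold change and the study targeted a DNA-binding homeodomain protein. It covers the 250 bases before the RefSeq start, chr15:11907372-11907621 on the minus strand of GRCm38, a later build than the mm9 named for the deposited tables. Capitals mark ATTAA, a core described for HHEX binding.
Npr3: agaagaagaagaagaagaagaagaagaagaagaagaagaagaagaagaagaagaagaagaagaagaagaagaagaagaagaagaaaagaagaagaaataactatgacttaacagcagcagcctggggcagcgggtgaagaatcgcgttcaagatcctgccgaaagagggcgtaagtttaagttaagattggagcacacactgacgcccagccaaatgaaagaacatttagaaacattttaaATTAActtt
The window opens with a run of 28 GAA units and holds 1 ATTAA, which begins 9 bases before the start. On either strand ATTAA occurs in 24.9% of 32851 such windows and in those of Npr3, Corin and Furin among the 9 members with a window. Every ATTAA also holds TAAT when read on the other strand, and TAAT occurs in 54.9% of windows. The Npr3 window held no match to CAATTAA (2.31% of windows), TATAAA (12.4%), GGGCGG (32.7%), AGATAA (9.99%), ACAAT (27.7%), ATTTGCAT (1.60%) or TGACGTCA (1.55%). These motifs were chosen with the values of Npr3 known. A match of letters is a description of the sequence and not a binding site, and no binding was measured.

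The receptors with a cyclase domain were low. Npr2, the C-type peptide receptor, measured 4.85 and 4.46 CPM in control 1 and 2, against 1.82 and 4.13 CPM in labelled knockout 1 and 2. The groups did not overlap, but labelled knockout 2 lay close to the controls and labelled knockout 1 was apart. This gave a log2 fold change of -0.68 ± 0.40 (SE), with a 95% interval of -1.61 to 0.25 (edgeR quasi-likelihood adjusted p = 0.799). Without labelled knockout 2 it was -1.37, and without labelled knockout 1 it was -0.20. Non-overlap in the lower direction was found for 17.4% of all genes.

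Npr1, the receptor of the atrial and B-type peptides, stood at 1.46 CPM in control 1, 0.365 CPM in control 2, 0.402 CPM in labelled knockout 1 and 1.16 CPM in labelled knockout 2. Here the libraries paired across groups, with control 1 and labelled knockout 2 high and the other two low. The counting intervals of these 2 pairs did not overlap, at 1.04 to 1.98 CPM and 0.813 to 1.61 CPM against 0.167 to 0.693 CPM and 0.225 to 0.663 CPM (exact Poisson, 95%, counting error only). Between groups its log2 fold change was -0.32 ± 0.78 (SE) (edgeR quasi-likelihood adjusted p = 0.960).

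Of the ligands, the B-type peptide gene Nppb was the one clearly above the floor of detection. It stood at 6.05 CPM in control 1, 13.5 CPM in control 2, 11.8 CPM in labelled knockout 1 and 4.45 CPM in labelled knockout 2. The groups overlapped, and each held one library with a high and one with a low level. The controls differed 2.23-fold from each other and the libraries labelled knockout 2.65-fold. The log2 fold change was -0.23 ± 0.50 (SE), with a 95% interval of -1.39 to 0.93 (edgeR quasi-likelihood adjusted p = 0.954). With 1 labelled knockout library left out the sign depended on which one: the log2 fold change was -1.14 without replicate 1 and 0.28 without replicate 2.

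Smooth muscle markers also varied between the libraries. Their sum was 368 CPM in control 1, 570 CPM in control 2, 379 CPM in labelled knockout 1 and 186 CPM in labelled knockout 2. Tagln, an actin-binding protein gene that made up most of it, measured 339, 513, 268 and 163 CPM in that order, so that control 1 stood above labelled knockout 1, unlike Nppb. Acta2, at 3.85 CPM or less, and Des and Rgs5, at 1.00 CPM or less, were also lower in labelled knockout 1 than in control 1. Cnn1 (20.4, 36.2, 63.9 and 12.3 CPM) and Myh11 (5.54, 16.4, 45.0 and 8.13 CPM) were highest in labelled knockout 1. The part of these markers in the Nppb values was not tested.

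The C-type peptide gene Nppc had 6, 11, 35 and 3 counts in control 1, control 2, labelled knockout 1 and labelled knockout 2. At 0.219, 0.446, 0.938 and 0.0968 CPM it was high in the same 2 libraries as Nppb, and the libraries labelled knockout differed 9.69-fold from each other. Its log2 fold change of 0.75 ± 1.05 (SE) had a 95% interval of -1.71 to 3.21 (edgeR quasi-likelihood adjusted p = 0.936). The atrial peptide gene Nppa had 6, 7, 2 and 4 counts in the same order of libraries. That was too few for the filter on low counts, so Nppa was not tested. Its level was lower in both libraries labelled knockout (0.0536 and 0.129 CPM) than in both controls (0.219 and 0.284 CPM), but the counting intervals overlapped between all libraries, from 0.114 to 0.585 CPM in control 2 to 0.00649 to 0.194 CPM in labelled knockout 1 (exact Poisson, 95%). Without the filter edgeR tested all 10 members and called 0, against 0.0668% of genes.

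Furin, the convertase that also processes many growth factors and receptors, was the steadiest member. It measured 38.1 and 37.6 CPM in control 1 and 2, against 34.5 and 36.4 CPM in labelled knockout 1 and 2. The groups did not overlap, as for 17.4% of all genes in this direction. The whole range was narrow, and the libraries of a group differed by at most 1.06-fold. Furin had a log2 fold change of -0.10 ± 0.14 (SE), with a 95% interval of -0.43 to 0.23 (edgeR quasi-likelihood adjusted p = 0.937). The second Furin transcript (NM_011046) had nearly the same counts and a log2 fold change of -0.10.

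Corin stood at 1.53 CPM in control 1, 0.446 CPM in control 2, 0.375 CPM in labelled knockout 1 and 0.903 CPM in labelled knockout 2. It was high in the same 2 libraries as Npr1. Its log2 fold change was -0.71 ± 0.75 (SE) (edgeR quasi-likelihood adjusted p = 0.905).

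Of the kinases, Prkg2 was slightly higher in both libraries labelled knockout than in both controls. It measured 2.77 and 2.59 CPM in control 1 and 2, against 3.99 and 3.81 CPM in labelled knockout 1 and 2. The groups did not overlap, as for 18.8% of all genes in this direction, and the libraries of a group differed by at most 1.07-fold. The counting intervals of control 1 (2.18 to 3.47 CPM) and labelled knockout 2 (3.15 to 4.56 CPM) overlapped (exact Poisson, 95%). Those of control 2 (2.00 to 3.31 CPM) and labelled knockout 1 (3.38 to 4.69 CPM) did not. Its log2 fold change of 0.54 ± 0.29 (SE), a fold of 1.45 with a 95% interval of 0.915 to 2.31, did not pass edgeR's quasi-likelihood test (adjusted p = 0.754). With each library left out in turn it lay between 0.48 and 0.59. Prkg1, the kinase of smooth muscle and platelets, stood at 0.874, 0.608, 0.536 and 1.00 CPM in control 1, control 2, labelled knockout 1 and labelled knockout 2. Its log2 fold change was 0.00 ± 0.62 (SE), and its sign turned with the choice of scaling factors.

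**Figure D3:**
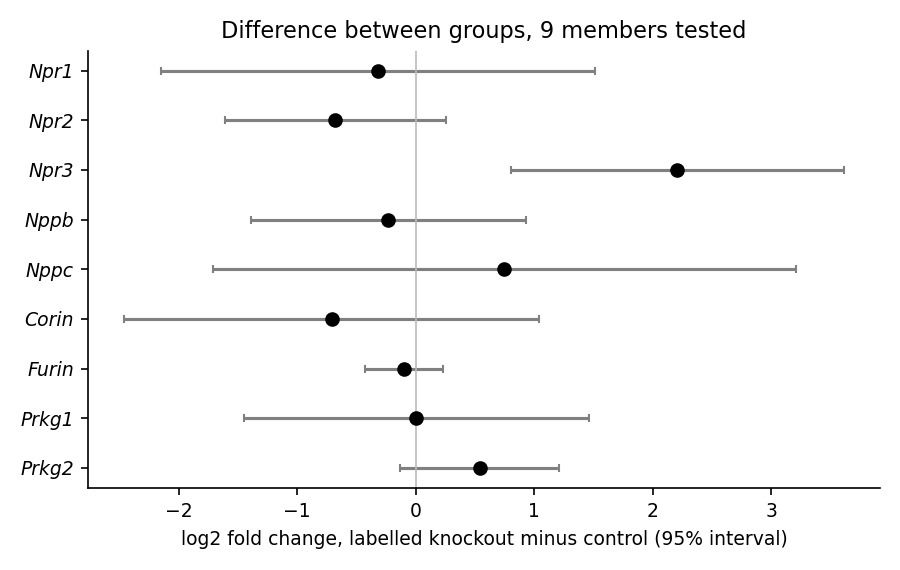
Log2 fold change, labelled knockout minus control, of the 9 members tested, with the 95% interval of edgeR's quasi-likelihood fit (n = 2 libraries per group). The interval of Npr3 (0.81 to 3.61) lies above 0, that of Furin is the narrowest (-0.43 to 0.23), and that of Nppc the widest (-1.71 to 3.21).

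In all, 2 tested members were higher in both libraries labelled knockout than in both controls (Npr3, Prkg2) and 2 were lower (Npr2, Furin), where 36.2% of all genes were one or the other. The other 5 tested members split the libraries across the groups. Npr1, Corin and Prkg1 were higher in control 1 and labelled knockout 2 than in the other 2 libraries, a pattern of 22.3% of all genes. Nppb and Nppc showed the opposite split, as did 22.7% of all genes. The share of reads that fell in transcripts, relative to control 1 and judged from the ratio of counts to RPKM, was 1.19 in control 2, 1.28 in labelled knockout 1 and 1.14 in labelled knockout 2. Among the 4249 genes with a mean under 2 CPM, 56.7% were higher in control 1 and labelled knockout 2, as were 3 of the 4 tested members that low. The part of the transcript share in these low values was not tested.

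**Figure D4:**
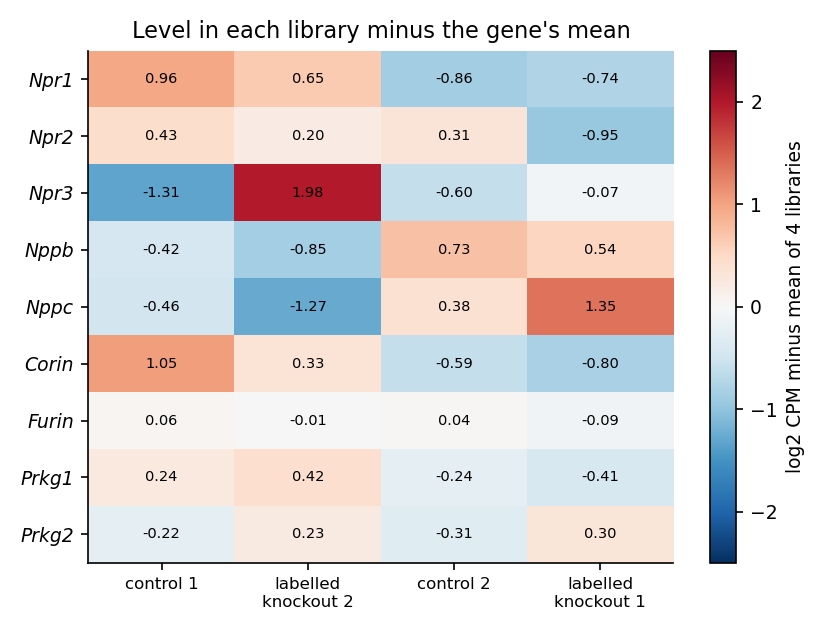
Log2 CPM (prior count of 2) of the 9 tested members in each library minus the mean over the 4 libraries, with control 1 and labelled knockout 2 placed side by side. Npr1, Corin and Prkg1 are above their mean in those 2 libraries, Nppb and Nppc are below it, and Npr3 is 1.98 above its mean in labelled knockout 2.

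Beyond the 10 genes, 58 other genes of natriuretic peptide and cGMP signalling were followed, of which 46 had enough counts to be tested. None passed edgeR's quasi-likelihood test at an adjusted p of 0.05, and 5 had an unadjusted p under 0.05, against 7.49% of all genes. DESeq2 called 4 of the 46 (Abcc5, Cftr, Ece1, Rgs2), against 1.71% of all genes, and gave no adjusted p to 18. On log2(RPKM + 1) limma-trend called 0, against 0.963% of all genes, and on log2(RPKM + 0.1) it called 1 (Rgs2), against 1.13%. Of the 46, 18 had positive and 28 negative log2 fold changes, with a median of -0.15, against 8271 negative of 15892 and a median of -0.01 over all genes. By non-overlap, 4 were higher and 6 lower in the libraries labelled knockout, where 18.8% of all genes were higher and 17.4% lower.

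Other receptors that make cGMP were about as low as Npr1. The 5 other receptor cyclases, among them Gucy2c, the guanylin receptor of the gut, had mean RPKM of 0.176 or less (the value of Gucy2d). All 5 were higher in control 1 and labelled knockout 2 than in the other 2 libraries, the split seen above for 56.7% of genes with a mean under 2 CPM and here for 17 of 22 pathway genes that low. All 5 log2 fold changes were negative, as were 8271 of 15892 over all genes, with Gucy2c at -0.78 and Gucy2d at -0.55. The guanylin gene Guca2a and the osteocrin gene Ostn, which encodes a ligand of Npr3, were at 0.437 and 0.243 CPM or less and were not tested. Gucy1a2, a subunit of the soluble cyclase that nitric oxide activates, measured 0.984 and 1.54 CPM in control 1 and 2, against 1.18 and 5.29 CPM in labelled knockout 1 and 2, so that, as for Npr3, labelled knockout 2 was highest (edgeR quasi-likelihood adjusted p = 0.781). Nos3, a nitric oxide synthase, stood between 6.38 and 8.55 CPM, and Nos1 between 0.509 and 1.86 CPM.

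Several genes of cGMP breakdown and export were more abundant than any of the cyclase genes. Pde3b, which hydrolyses cAMP and is inhibited by cGMP, had a mean of 17.1 RPKM and measured 125 and 121 CPM in control 1 and 2, against 79.6 and 155 CPM in labelled knockout 1 and 2. Pde2a, a phosphodiesterase that cGMP stimulates, stood between 2.09 and 3.57 CPM. Pde5a, the cGMP-specific enzyme, was named after its values were seen and stood between 25.6 and 34.3 CPM. Of the 10 tested genes that were listed under phosphodiesterases, 4 had positive and 6 negative log2 fold changes. The exporter gene Abcc5 measured 89.3 and 101 CPM in control 1 and 2, against 142 and 194 CPM in labelled knockout 1 and 2, without overlap. Non-overlap in this direction was found for 18.8% of all genes. The log2 fold change of Abcc5, 0.82 ± 0.19 (SE), had an edgeR quasi-likelihood adjusted p of 0.231. Abcc4, also an exporter and named after its values were seen, measured 82.7 and 108 CPM in control 1 and 2, against 201 and 34.1 CPM in labelled knockout 1 and 2, so that the libraries labelled knockout lay on both sides of the controls. The channel genes opened by cyclic nucleotides were low, with Cnga3 between 0.446 and 0.984 CPM and Cngb1 between 0.487 and 1.89 CPM.

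Among effectors of cGMP kinase, all 8 tested genes had negative log2 fold changes, as did 8271 of 15892 over all genes. Of the 8, 2 had an unadjusted p under 0.05 in edgeR (Rgs2, Cftr), against 7.49% of all genes. Without overlap 3 of the 8 were lower (Rgs2, Cftr, Slc9a3), where 17.4% of all genes were. Slc9a3 had only 25, 12, 8 and 14 counts in control 1, control 2, labelled knockout 1 and labelled knockout 2. The log2 fold changes of Vasp (-0.11 ± 0.15, SE), Itpr1 (-0.19 ± 0.25), Mrvi1 (-0.24 ± 0.67) and Kcnma1 (-0.35 ± 0.60) were smaller than their SE. Slc9a3, Vasp, Itpr1, Mrvi1 and Kcnma1 were named after their values were seen. Rgs2, a regulator of G protein signalling that Prkg1 activates, had the smallest p of the 46 genes. It measured 30.7 and 34.8 CPM in control 1 and 2, against 16.3 and 14.0 CPM in labelled knockout 1 and 2, with a log2 fold change of -1.11 ± 0.17 (SE) and an edgeR quasi-likelihood adjusted p of 0.0862. Rgs2 was called by edgeR's robust fit (as were 0.302% of all genes), by DESeq2 and by limma-trend on log2(RPKM + 0.1). Cftr, the ductal chloride channel that Prkg2 phosphorylates, was named after its values were seen. It measured 33.6 and 35.1 CPM in control 1 and 2, against 13.1 and 22.9 CPM in labelled knockout 1 and 2 (edgeR quasi-likelihood adjusted p = 0.344). Ppp1r12a, the myosin phosphatase subunit, stood between 135 and 196 CPM, and the groups overlapped. The log2 fold change of Ppp1r12a was -0.04 ± 0.20 (SE) and turned positive with limma-trend on log2(RPKM + 1) and on log2(RPKM + 0.1).

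Of the 5 tested genes listed as peptide-degrading proteases, 4 had positive log2 fold changes, as did 7621 of 15892 over all genes. The 1 with a negative value was Ece1, and none passed edgeR's quasi-likelihood test. Ece1, the endothelin-converting enzyme, measured 77.7 and 129 CPM in control 1 and 2, against 56.1 and 49.3 CPM in labelled knockout 1 and 2, with a log2 fold change of -0.97 ± 0.24 (SE) and an edgeR quasi-likelihood adjusted p of 0.287. Mme, which encodes neprilysin, the main enzyme that degrades natriuretic peptides, was named after its values were seen and stood between 6.04 and 8.53 CPM with overlapping groups. Among convertases, Pcsk6, which is known to activate corin, measured 12.0 and 15.7 CPM in control 1 and 2, against 29.8 and 21.0 CPM in labelled knockout 1 and 2 (edgeR quasi-likelihood adjusted p = 0.321). Mbtps1, the site-1 protease, stood between 79.4 and 116 CPM.

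The inhibitory G proteins through which Npr3 can signal included the most abundant gene of the list. Gnai2 averaged 72.8 RPKM and stood between 184 and 220 CPM. Gnai1 stood between 9.81 and 17.7 CPM. Log2 fold changes were 0.12 ± 0.16 (SE) for Gnai2 and 0.25 ± 0.30 (SE) for Gnai1, and the groups overlapped for both.

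**Figure D5:**
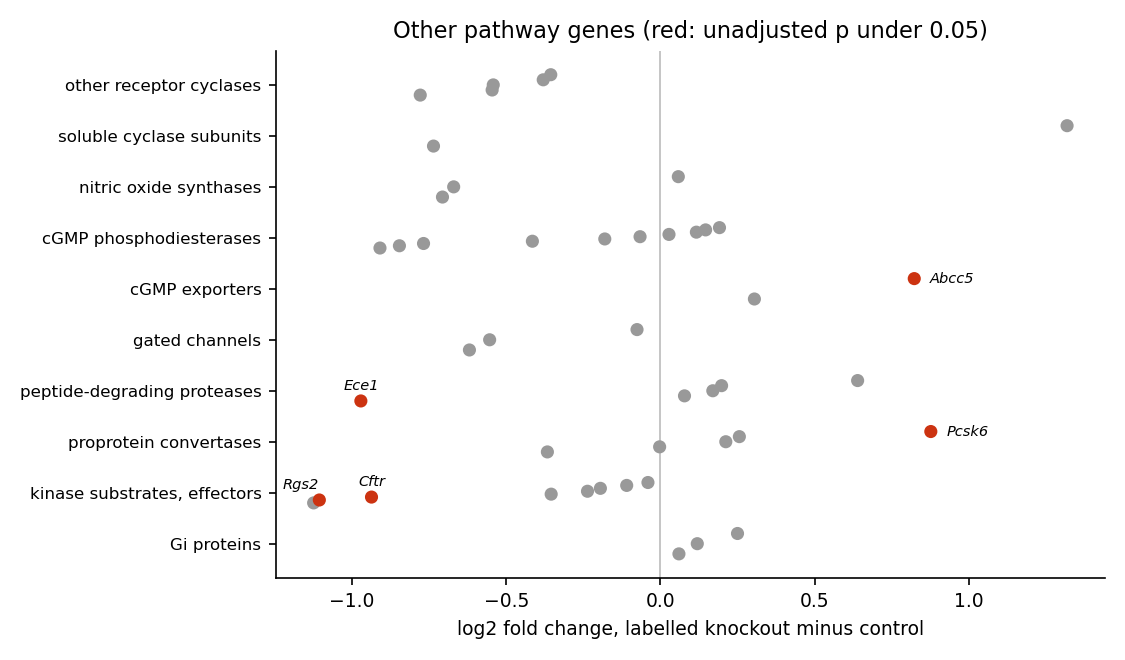
Log2 fold change, labelled knockout minus control, of the 46 other pathway genes tested, by role, with red points for an unadjusted p under 0.05 in edgeR's quasi-likelihood test. The 5 red points are Abcc5 and Pcsk6 above 0 and Ece1, Cftr and Rgs2 below it, and none of them has an adjusted p of 0.05 or less.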

How the data were processed

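RNA of 4 cultures, each from its own mouse (2 control, 2 labelled Hhex knockout), was prepared per the labels' protocols with the Illumina TruSeq RNA v2 kit. The authors deposited raw counts and RPKM values with 1 line for each of 28644 RefSeq transcripts. The submitters' processing notes name mm9 and edgeR without a version. Aligner, counting program and strand setting are not given in the sources used here. By GENCODE M21, exons of 6 of the 10 genes (Npr1, Npr2, Npr3, Nppa, Corin, Furin) overlap a gene on the opposite strand, whose reads cannot be told apart without strand.

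Counts were tested with edgeR 4.0.16 in R 4.3.3 (filterByExpr with a minimum count of 10 and total of 15, TMM, quasi-likelihood F test with the newer treatment of small counts, Benjamini-Hochberg adjustment over 20949 transcripts, threshold 0.05). The script was tested on simulated data. Alternatives were other scaling, filters and features, DESeq2 1.42.0, limma-trend (limma 3.58.1) on the deposited RPKM of the same transcripts, and each library left out. The older treatment of small counts in edgeR was added after the data were seen. All 10 genes are named. Of the pathway list, each role gives its highest mean RPKM and its smallest p, with others marked. The counts cover the whole list except 1 gene, which is left out of them and not reported here. Members and lists were chosen with earlier results of these data known.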

Additional observations from a re-analysis of the deposited data

How the results depend on the processing

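At 7 counts or fewer per library, Nppa was tested in no fit but the one without a filter on low counts. No paired analysis was possible because the labels give the groups no shared replicate numbers. Against 32 transcripts called, 5 were called with upper-quartile factors or library totals, 2 with 1 transcript per gene, 14 with counts summed per gene, 64 with the robust fit, 366 with DESeq2, 190 with limma-trend on log2(RPKM + 1) and 221 on log2(RPKM + 0.1). With 1 library left out it was 0 to 1911. The 0 without control replicate 1 stood beside 517 with an unadjusted p under 0.05.

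Against 0 members called, 1 (Npr3) was called with limma-trend on log2(RPKM + 0.1), and 0 to 2 with a library left out (Nppb and Npr3 without labelled knockout replicate 1, Npr2 and Npr3 without replicate 2). Against 0 pathway genes, 1 was called with the robust fit (0.302% of all genes), 4 with DESeq2 (1.71%), 1 with limma-trend on log2(RPKM + 0.1) (1.13%), and 0 to 9 with a library left out (7.6% of all genes without labelled knockout replicate 1 and 8.57% without replicate 2). The cause was not tested.

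Left out in turn, libraries turned the sign of these log2 fold changes, none of them called in the reported test, which then ranged from -1.23 to 1.04 for Npr1, -1.14 to 0.48 for Nppb, -1.73 to 1.49 for Nppc, -1.45 to 0.47 for Corin, -0.50 to 0.39 for Prkg1, -2.05 to 0.61 for Gucy2d, -0.10 to 2.05 for Gucy1a2, -0.14 to 0.32 for Nos3, -0.65 to 0.31 for Pde3b, -0.47 to 0.63 for Cnga3, -1.21 to 0.70 for Cngb1, -0.062 to 0.48 for Mbtps1, -0.36 to 0.19 for Ppp1r12a, -0.23 to 0.56 for Gnai1, -1.51 to 1.06 for Abcc4, -0.038 to 0.35 for Pde5a and -0.11 to 0.35 for Mme. With every library kept, signs also turned, to -0.0068 for Prkg1 with RLE scaling factors, -0.051 for Prkg1 with upper-quartile scaling factors, -0.077 for Prkg1 and -0.012 for Nos3 and -0.0085 for Mme with library totals only, -0.0033 for Prkg1 with no filter on low counts, -0.021 for Prkg1 with one transcript per gene, 0.0083 for Cnga3 and 0.0043 for Ppp1r12a and -0.068 for Abcc4 with limma-trend on log2(RPKM + 1), 0.053 for Cnga3 and 0.0038 for Ppp1r12a and -0.12 for Abcc4 with limma-trend on log2(RPKM + 0.1).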
